A study of Mus musculus with 6 samples.

Results

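The genes described here make, bind, break down and respond to retinoic acid, and were measured in the stria vascularis of Errb mutant and wild type mice. They were chosen by name: Aldh1a1, Aldh1a2, Aldh1a3, Cyp26a1, Cyp26b1, Rarb, Crabp1, Crabp2 and Stra6, 9 of the 18193 genes that have a probe set with 1 gene symbol in the platform annotation. All 9 were on the array, with 11 probe sets in all, 3 of them for Aldh1a3 and 1 for each of the other 8 genes. The choice was made with results of these arrays in view, and it was the low signal of Aldh1a2 in the mutant that brought the set together. The values of Aldh1a2 are therefore given as a description, without a test.

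The Errb mutant mice carried a conditional knock-out of Errb, the gene listed as Esrrb in the annotation, which codes for estrogen-related receptor beta, a nuclear receptor with no known natural hormone. Each genotype was represented by 3 RNA samples, Errb mutant replicates 1 to 3 and wild type replicates 1 to 3, each on 1 Affymetrix array. Each sample pooled tissue from 10 mice; the design text names inner ears and the sample labels stria vascularis. An age of postnatal days 3 to 5 is given for wild type replicate 1 alone, and the labels state neither the strain, nor the Cre driver, nor the cells in which the gene was deleted.

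Retinoic acid is the active form of vitamin A. Retinol enters cells through Stra6, is oxidised to retinaldehyde, and is turned into retinoic acid by the retinaldehyde dehydrogenases Aldh1a1, Aldh1a2 and Aldh1a3. Crabp1 and Crabp2 bind the acid in the cytoplasm, Cyp26a1 and Cyp26b1 oxidise it for removal, and the retinoic acid receptors, of which Rarb is one, bind DNA together with retinoid X receptors and switch on genes that include Rarb and Cyp26a1 themselves. Retinoic acid is known for patterning the inner ear in development, where both its loss and its excess cause malformations. The question put to the arrays was whether genes that respond to retinoic acid were also lower where Aldh1a2 was lower.

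The sequences around the transcription starts of 3 of these genes are shown because Rarb and Cyp26a1 are classical direct targets of retinoic acid receptors and Aldh1a2 is the gene that was lower. Each window runs from 250 bases before to 50 bases after the start, 5′ to 3′ on the gene's own strand (RefSeq, GRCm38.p6). Capitals mark a direct repeat with a spacer of 5 bases, called DR5, the arrangement to which retinoic acid receptors classically bind. The Aldh1a2 window (chr9:71215539-71215838, plus strand) held no such repeat; the Rarb window is chr14:16575427-16575726 (minus strand) and the Cyp26a1 window chr19:37697558-37697857 (plus strand).
Aldh1a2: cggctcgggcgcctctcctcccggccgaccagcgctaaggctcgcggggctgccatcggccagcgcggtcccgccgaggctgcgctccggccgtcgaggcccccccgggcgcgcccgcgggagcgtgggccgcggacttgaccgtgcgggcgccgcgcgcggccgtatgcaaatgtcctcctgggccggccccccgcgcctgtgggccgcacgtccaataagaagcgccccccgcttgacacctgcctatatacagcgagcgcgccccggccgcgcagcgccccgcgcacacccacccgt
Rarb: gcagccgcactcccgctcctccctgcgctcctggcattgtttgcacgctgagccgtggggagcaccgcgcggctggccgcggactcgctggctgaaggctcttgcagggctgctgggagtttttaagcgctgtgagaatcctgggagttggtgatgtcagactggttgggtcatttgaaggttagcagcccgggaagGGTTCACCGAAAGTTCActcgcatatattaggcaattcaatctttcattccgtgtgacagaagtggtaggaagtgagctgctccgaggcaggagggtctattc
Cyp26a1: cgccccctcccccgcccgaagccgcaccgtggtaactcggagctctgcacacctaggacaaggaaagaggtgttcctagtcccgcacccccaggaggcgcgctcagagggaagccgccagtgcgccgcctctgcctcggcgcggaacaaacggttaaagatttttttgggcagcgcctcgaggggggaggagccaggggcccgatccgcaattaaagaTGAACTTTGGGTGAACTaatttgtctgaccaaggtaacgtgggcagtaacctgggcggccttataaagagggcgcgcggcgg
The repeat units searched were AGGTCA and its variant AGTTCA, and likewise the unit GGGTCA with the variant GGTTCA. A match was any 1 of these 4, then 5 bases of any kind, then 1 of the same 4, on either strand. In Rarb the repeat read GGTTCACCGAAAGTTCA and lay 53 to 37 bases before the start. In Cyp26a1 it lay 32 to 16 bases before the start and read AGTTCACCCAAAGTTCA on the strand opposite to the gene. Of 32851 windows of 300 bases in the table, 32 held such a repeat (0.0974%). Among the genes described here, 7 had 11 windows between them, and those of Rarb and Cyp26a1 were the only 2 with a match; Aldh1a3 and Crabp2 had no entry. The letters TCAAGGTCA, the classical site of estrogen-related receptors, whose last 6 letters are also 1 of the 4 repeat units above, were in 0 of the 11 windows and in 0.423% of all windows. A match is a description of the letters, and no binding was measured.

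Same-numbered arrays resembled each other, and differences are given as Errb mutant minus wild type within each pair of the same replicate number, on the log2 scale. Array medians were 6.08, 6.94 and 6.38 in mutant replicates 1 to 3 and 6.07, 6.95 and 6.42 in wild type replicates 1 to 3. In pair 1, 34.2% of probe sets had exactly the same value on both arrays, against 2.63% and 3.10% in pairs 2 and 3. Between arrays of different replicate number, 0 probe sets had equal values. How far processing made same-numbered arrays alike was not tested. The 3' to 5' signal gap of the Gapdh control, which widens as RNA degrades, was 2.57 (mutant) and 2.28 (wild type) in pair 1 and between -0.04 and 0.51 on the other 4 arrays. Esrrb itself differed by -0.07 ± 0.21, -0.18 ± 0.43 and -0.42 ± 0.46 (SD, n = 3 pairs) over its 3 probe sets; the labels do not say which part of the gene was deleted, so these values are no test of the genotypes.

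Among the synthesis genes, Aldh1a2 was much lower in the mutant, while neither of its paralogs passed the test. Aldh1a2 measured 7.17, 7.91 and 7.04 in Errb mutant replicates 1 to 3, against 10.10, 10.57 and 9.64 in wild type replicates 1 to 3. The genotypes did not overlap, and the deficit had nearly the same size in each pair; 0.306% of all probe sets were lower in the mutant without overlap. The pair differences were -2.93, -2.66 and -2.60, with a mean of -2.73 ± 0.18 (SD, n = 3), which is 6.63-fold lower. By mean difference its rank from the lowest was 3 of 18193 genes. The mutant signal still lay between the 60.7 and 69.6 percentile of its arrays, against the 92.4 to 96.4 percentile in wild type, so it did not sit at the bottom of the scale. In bulk tissue, fewer cells of a type and less RNA per cell cannot be told apart.

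Aldh1a1, a retinaldehyde dehydrogenase of the same family, measured 9.53, 11.18 and 10.90 in mutant replicates 1 to 3, against 9.67, 11.30 and 11.13 in wild type. It was slightly lower in each pair, by 0.14, 0.12 and 0.23, while the genotypes overlapped widely. The mean of -0.17 ± 0.06 did not pass over all probe sets (limma adjusted p = 0.715, 95% interval -0.34 to 0.01). Aldh1a3 measured 5.23, 6.25 and 5.37 in the mutant and 5.43, 6.16 and 5.39 in wild type by its best expressed probe set. That is a difference of -0.043 ± 0.14, and the other probe sets differed by -0.12 ± 0.16 and -0.034 ± 0.15. None of the 3 passed (adjusted p = 0.760 to 0.920), and no probe set of Aldh1a3 moved the same way in all 3 pairs. The best expressed of the 3 lay between the 32.1 and 37.2 percentile of the arrays. No probe set of Aldh1a1 or Aldh1a3 passed as higher in the mutant. Over the whole array 0.0933% of probe sets passed in either direction and 0.0822% as lower. So few passed as higher that this says little of the paralogs.

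**Figure D1:**
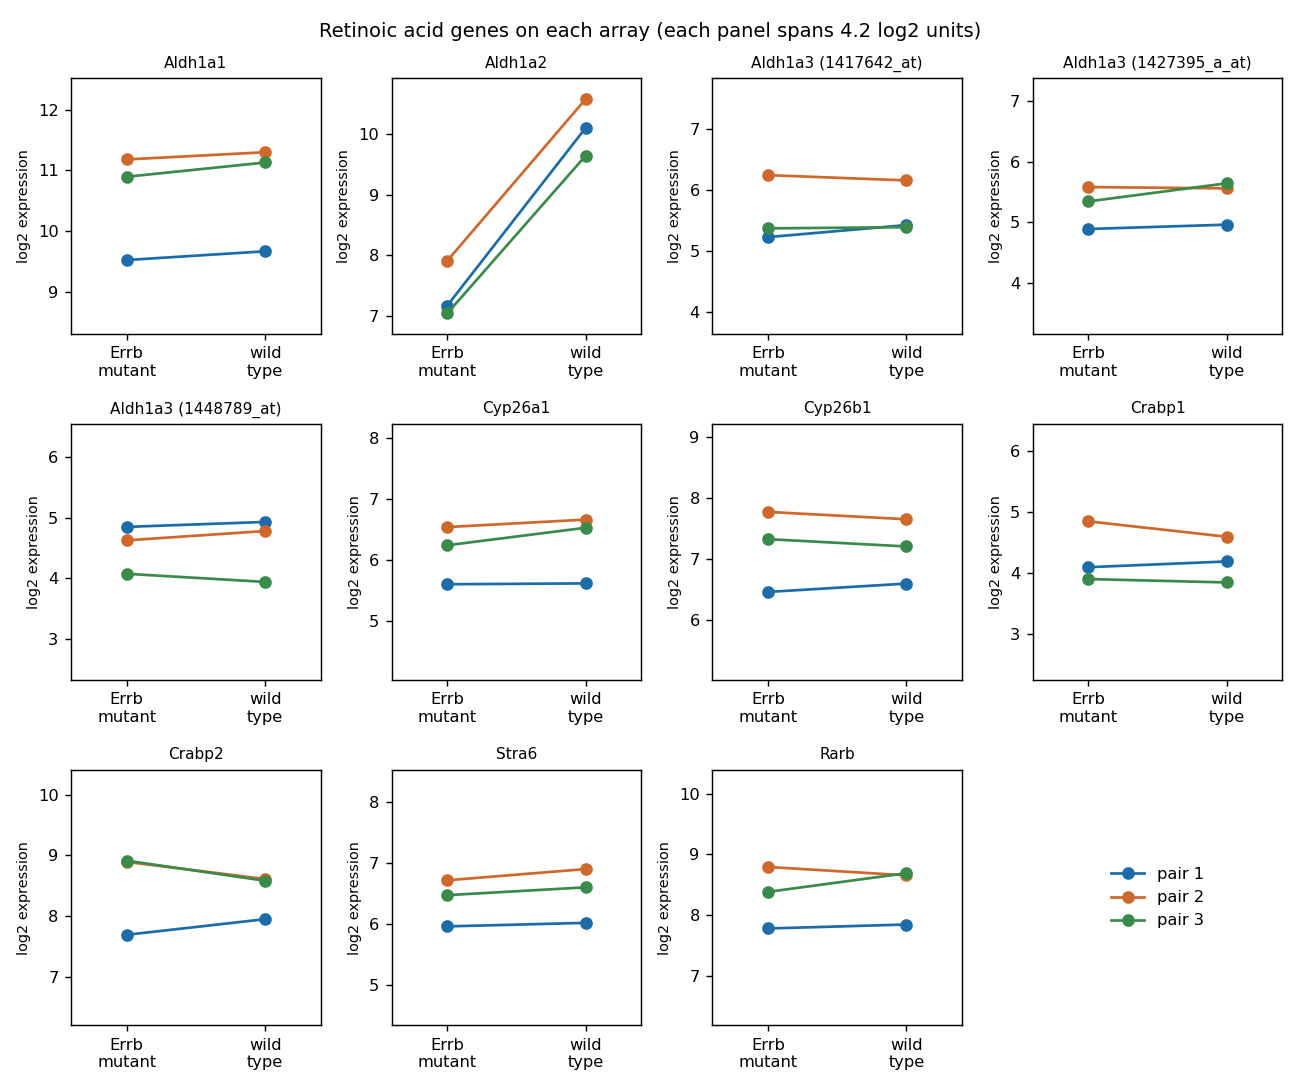
Log2 expression of the 11 probe sets on each array, with Errb mutant left and wild type right in each panel, lines joining same-numbered pairs, and every panel spanning the same number of log2 units. The Aldh1a2 values lie at 7.04 to 7.91 in the mutant, against 9.64 to 10.57 in wild type, while the genotypes overlap for every other gene.

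None of the genes that respond to retinoic acid passed the test, where 0.148% of all genes passed in either direction. With a share that small, a count of 0 says little of these genes. Rarb, a retinoic acid receptor and a direct target with the repeat shown above, measured 7.78, 8.79 and 8.38 in Errb mutant replicates 1 to 3, against 7.85, 8.66 and 8.69 in wild type. The mutant was lower in pairs 1 and 3 and higher in pair 2, and the genotypes overlapped. The mean difference was -0.078 ± 0.22 (limma adjusted p = 0.849), with a 95% interval of -0.34 to 0.18. It was -0.19 without pair 2 and 0.037 without pair 3. The lower end of the 95% interval with arrays paired is a 1.26-fold fall. In a fit without the pairing the Rarb interval was -0.96 to 0.81.

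Cyp26a1, the breakdown enzyme whose start window also holds the repeat, measured 5.60, 6.54 and 6.24 in the mutant, against 5.61, 6.66 and 6.53 in wild type. It was lower in all 3 pairs, by 0.014, 0.12 and 0.29. The mean of -0.14 ± 0.14 did not pass (adjusted p = 0.750, 95% interval -0.35 to 0.06), and being lower in all 3 pairs was shared by 9.03% of all genes. The difference was -0.21 without pair 1, -0.15 without pair 2 and -0.069 without pair 3. Cyp26b1, the other breakdown enzyme, measured 6.46, 7.78 and 7.33 in the mutant and 6.60, 7.65 and 7.21 in wild type. It was lower in pair 1 and higher in pairs 2 and 3, with a mean of 0.035 ± 0.15 (adjusted p = 0.919, 95% interval -0.18 to 0.25).

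None of the binding and uptake genes passed, where 0.148% of all genes did. Crabp2, a cytoplasmic retinoic acid binding protein that delivers the acid to its receptors, measured 7.69, 8.89 and 8.91 in Errb mutant replicates 1 to 3, against 7.95, 8.61 and 8.58 in wild type. It was lower in pair 1 and higher in pairs 2 and 3, with a mean of 0.12 ± 0.33 (adjusted p = 0.826, 95% interval -0.22 to 0.46). Its mean difference was 0.31 without pair 1, 0.037 without pair 2 and 0.012 without pair 3 (limma adjusted p = 0.731, 0.963 and 0.991). Without pair 1 its 95% interval was 0.05 to 0.56. Fits on 2 pairs can call few genes, with 7, 0 and 0 probe sets passing over the whole array, so these p-values decide nothing. Crabp1 measured 4.09, 4.84 and 3.90 in the mutant and 4.18, 4.59 and 3.84 in wild type, a difference of 0.072 ± 0.17 (adjusted p = 0.841). Its signal lay between the 8.24 and 16.1 percentile of the arrays, low on the scale.

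Stra6, the membrane receptor that takes up retinol and is itself induced by retinoic acid in mouse cells, measured 5.96, 6.72 and 6.47 in the mutant, against 6.01, 6.90 and 6.60 in wild type. It was lower in all 3 pairs by 0.058, 0.18 and 0.13, a mean of -0.12 ± 0.06 that did not pass (adjusted p = 0.750, 95% interval -0.30 to 0.05).

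Leaving Aldh1a2 aside, 0 of the 10 other probe sets passed at an adjusted p below 0.05 in the paired limma fit (adjusted p from 0.715 to 0.920), and over the whole array 0.0822% of probe sets passed as lower and 0.0933% in either direction. Over these 8 genes the mean differences ran from -0.17 to 0.12 with a median of -0.061, beside 0.0036 over all 18193 genes, and 5 were below 0 and 3 above. Their 95% intervals in this paired fit reached no lower than -0.35 and no higher than 0.46. In the fit without the pairing they were wider, reaching -1.35 (Aldh1a1) and 1.05 (Crabp2). In pair 1 all 8 were lower, by 0.014 to 0.26, in pair 2 there were 3 lower and 5 higher, and in pair 3 there were 5 lower and 3 higher. Pair 1 is the pair with the wide Gapdh gap, whose part in this was not tested. Without the pairing 0 of the 10 passed, where 0.00666% passed over the whole array. Aldh1a2 did not pass in that fit either, so the count decides nothing about the 10.

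**Figure D2:**
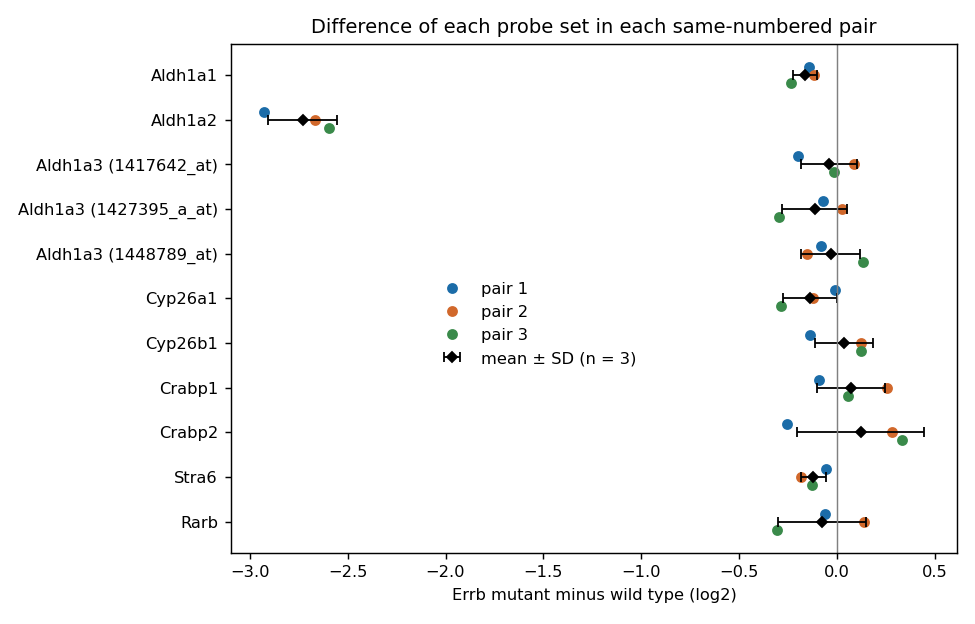
Errb mutant minus wild type (log2) for each of the 11 probe sets, with 1 coloured point per same-numbered pair and a black diamond with bars for the mean ± SD of the 3 pairs. The 3 points of Aldh1a2 lie between -2.93 and -2.60, and every point of the other probe sets lies between -0.31 and 0.33.

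None of the other genes of the pathway, listed by role, passed. Of 59 listed genes 50 were measured, and 0 passed in either direction over all probe sets, where 0.148% of all genes passed. By gene, 6 of the 50 had an unadjusted limma p below 0.05, Gprc5a lower in the mutant and the others higher. Over all probe sets, a different unit, the share was 7.18%. Of the 50 genes 19 were lower and 31 higher, with a median difference of 0.037, where 48.6% of all genes were lower. In the retinol transport and storage list, 0 of 9 passed and the median was 0.013. Ttr, the carrier of retinol-binding protein in plasma, had the largest difference of the pathway, 0.60, 0.58 and 0.85 higher in the 3 mutant replicates (0.67 ± 0.15, adjusted p = 0.143). Dgat1, which can esterify retinol for storage, differed by 0.046 ± 0.12 (adjusted p = 0.882).

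Among the dehydrogenases and reductases that interconvert retinol and retinaldehyde, 0 of 15 passed and the median was -0.01. Rdh10, the main retinol dehydrogenase of the mouse embryo and the step before Aldh1a2, differed by -0.033 ± 0.12 (adjusted p = 0.916). Adh5, a broadly expressed alcohol dehydrogenase, differed by 0.014 ± 0.03 (adjusted p = 0.960). Of the related aldehyde dehydrogenases 0 of 4 passed. Aldh2, the mitochondrial enzyme that clears acetaldehyde, differed by -0.074 ± 0.30, and Aldh1a7, a rodent relative of Aldh1a1, by 0.25 ± 0.29 (adjusted p = 0.884 and 0.739).

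Receptors and coregulators had 0 of 11 genes passing, with 10 higher and 1 lower and a median of 0.13. Their pair medians were 0.02, 0.06 and 0.22. Of all genes 48.6% were lower, 57% of those below the median level and 40.2% of those above it. The part of signal level in the counts of these lists was not tested. Nrip1, a ligand-dependent corepressor that retinoic acid induces, was 0.38, 0.51 and 0.10 higher in the 3 mutant replicates (0.33 ± 0.21, adjusted p = 0.555). The coactivator Ncoa2 differed by 0.16 ± 0.22 (adjusted p = 0.751). Of 14 other known target genes 0 passed, with 4 lower and 10 higher and a median of 0.10. Tgm2, the retinoic acid inducible tissue transglutaminase, was 0.21, 0.08 and 0.11 higher in the 3 mutant replicates (0.13 ± 0.07, adjusted p = 0.745). Gprc5a, a retinoic acid induced membrane protein picked after its values were seen, went the other way, 0.15, 0.43 and 0.13 lower in the 3 mutant replicates (-0.24 ± 0.17, adjusted p = 0.671, 95% interval -0.46 to -0.02). Nrip1 is counted in both the receptor and the target list.

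A list defined by sequence alone was added after the values were seen. The 32 windows with the repeat belong to 31 genes, of which 11 were measured, Rarb and Cyp26a1 included. None of the 11 passed (smallest limma adjusted p = 0.750), where 0.148% of all genes did, and the median difference was -0.078. All 11 had a mean difference below 0, from -0.17 to -0.02, where 48.6% of all genes had one, and 1 of the 11, Cyp26a1, was lower in all 3 pairs. By pair 5, 7 and 8 of the 11 were lower and 4, 1 and 1 were exactly equal. Of the 11, 9 lay below the median level of all genes, and in that part of the array 57% of genes were lower, against 40.2% in the part above it.

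**Figure D3:**
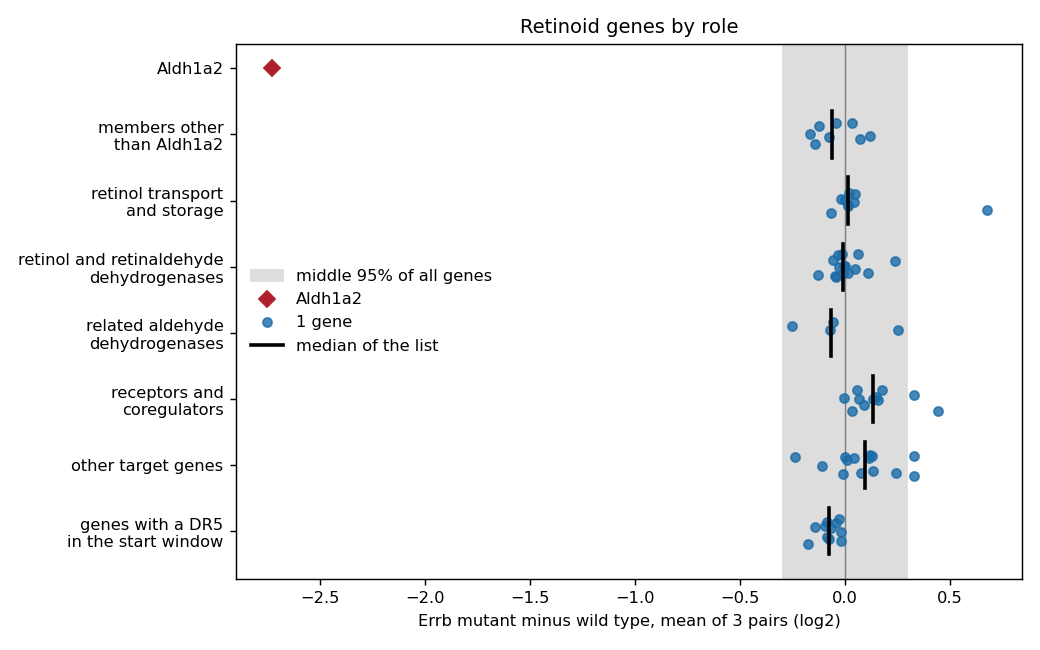
Mean Errb mutant minus wild type difference over 3 pairs (log2) of each gene, grouped by role, with black bars for list medians and a grey band for the middle 95% of all genes. Aldh1a2 lies at -2.73, far outside the band, and the 8 other genes of the set lie inside it, as do all genes of the wider pathway lists except Ttr, Nrip1, Fabp5 and Meis2, of which Fabp5 and Meis2 were picked for their values.

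Several markers of marginal cells, the epithelial cells that face the endolymph, were lower in the mutant as well. Of 9 measured, 4 passed as lower (Kcne1, Kcnq1, Slc12a2 and Atp13a5), where 0.148% of all genes passed in either direction. All 9 had mean differences below 0, as 48.6% of all genes did. This list was drawn up with earlier results of these arrays known, so these counts lend no support of their own. The list includes the targeted gene Esrrb (-0.07 ± 0.21), which by this probe set was lower in pair 2 alone, and Shroom3, an actin regulator, which differed by only -0.06 ± 0.02. The pair medians of the list were -1.33, -1.31 and -1.07. Its summed signal (log2) without Esrrb was 11.57 to 12.57 on mutant arrays, against 13.07 to 13.97 on wild type arrays. Markers of intermediate cells and melanocytes were lower in 9 of 10 (median -0.64, 0 passing) and those of basal cells in 5 of 6 (median -0.28, 1 passing). Aldh1a2 is also known from meninges and mesothelium. Of 9 meningeal markers 6 were lower with a median of -0.099, and Ptgds, the prostaglandin D synthase gene, was the only 1 to pass (-1.70 ± 0.23). The summed meningeal signal was 13.21 to 13.89 on mutant and 13.81 to 14.72 on wild type arrays. Without Ptgds it was 12.76 to 13.29 on mutant and 12.81 to 13.21 on wild type arrays. That last sum rests mainly on the 2 brightest markers, Ogn and Foxc1, and says little of the others. Slc13a4 (-0.51 ± 0.38) and Foxc1 (-0.18 ± 0.24) were lower in all 3 pairs. Zic1 (0.27 ± 0.11) and Ogn (0.14 ± 0.03) were higher in all 3. Of 5 mesothelial markers 4 were lower (median -0.11, 0 passing), with summed signals of 7.69 to 8.31 on mutant and 7.68 to 8.46 on wild type arrays. The part of cell composition in the fall of Aldh1a2 was not tested.

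Medians of the other marker lists were 0.02 for spiral ligament fibrocytes, 0.28 for Reissner membrane, 0.30 for spindle and root cells, 0.10 for cartilage and bone, -0.16 for endothelium, 0.12 for macrophages and 0.06 for hair cells, with 0 members passing in any. Neuron markers had a median of 1.17 that rested on pair 1 (3.12, against 0.34 and 0.20 in pairs 2 and 3), and none passed.

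**Figure D4:**
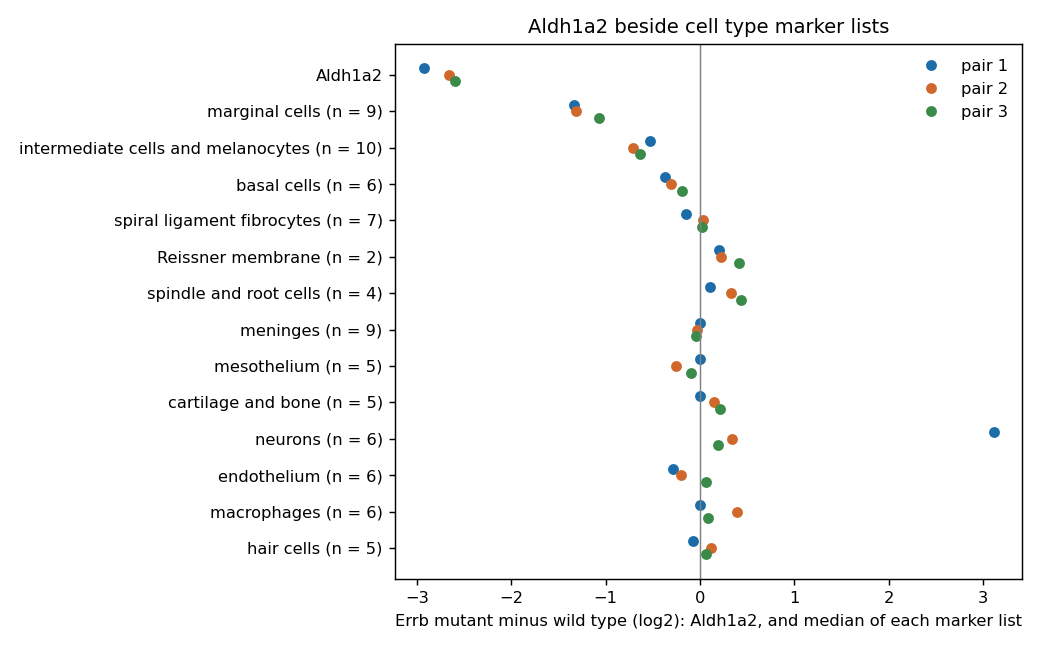
Errb mutant minus wild type (log2) in each pair for Aldh1a2 and for the median of each cell type marker list, with the number of markers measured in brackets. Marginal cell markers are the list nearest to Aldh1a2, at -1.33 to -1.07, and neuron markers stand apart in pair 1.

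The genes most like Aldh1a2 were sought by the root mean square distance between the 3 pair differences, as a description over 3 pairs. Ehd3, an endocytic recycling protein, was nearest at a distance of 0.74 (mean difference -2.02 ± 0.21). Rspo3, a secreted Wnt enhancer, followed at 0.84 (-1.92 ± 0.27), with Dnase1, a secreted nuclease, at 0.84 (-3.31 ± 0.60), Rnf152, a ubiquitin ligase, at 0.88 (-1.86 ± 0.39) and Atp13a5, a P-type ATPase, at 0.92 (-1.86 ± 0.26). None of them is a gene of the retinoic acid lists. This adds nothing to the values above, since the lowest mean difference in the wider pathway lists was -0.25.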

How the data were processed

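Total RNA of 6 pools was measured on 1 array each. The deposited values are log2 expression per probe set, made by the authors with RMA, as the submitters' processing notes have it, with no version or settings stated. The values, 2.33 to 14.64, show the log2 scale and were used unchanged. Of 45101 probe sets 64 controls were left out. Differences were fitted over the other 45037 with limma 3.58.1 in R 4.3.3 (two-sided moderated test, Benjamini-Hochberg, threshold 0.05), with the replicate number as a block and no filter on level. Arrays were paired by the replicate number in the labels, which do not say what it stands for. Same-numbered arrays deviated together from their genotype means, with correlations of 0.879, 0.818 and 0.746 against a minimum of 0.1. Mutant replicate 2 with wild type replicate 3 also exceeded that minimum, at 0.119, and the other unmatched combinations were negative. P-values of this fit measure the spread of the 3 differences within pairs, moderated over all probe sets, and 3 arrays per genotype limit the precision. A gene is represented by its best expressed probe set. Members, lists and pairing were chosen with earlier results of these data known. Genes named by rule were all members, Esrrb as the targeted gene and the 5 genes most like Aldh1a2. From each pathway list these were any that passed and the 2 of highest mean level. Gprc5a, Fabp5, Meis2 and single marker genes were named outside this rule, with their values in view. Listed genes with no probe set of 1 symbol, 9 of 59 in the pathway lists, are not analysed here. The fit was tested on simulated data, and start windows were searched in Python 3.11.15.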

Additional observations from a re-analysis of the deposited data

How the results depend on the processing

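Aldh1a2, described without a test, kept its direction under all 10 alternatives, with a difference of -2.80 to -2.63 when a pair was left out. Dropping the replicate block leaves a mean difference unchanged by construction, at -2.73 for Aldh1a2. The count of member probe sets past the threshold, which the choice of Aldh1a2 fixes and which supports nothing, was 1 in the paired fit, 0 without the replicate block and 0 to 1 when a pair was left out. Over all probe sets 42 passed, against 3 without the replicate block, 0 to 7 when a pair was left out, 6 at an adjusted p under 0.01 and 92 under 0.1. A fit on 2 pairs has 1 residual degree of freedom, which by construction limits its calls. For the 8 other genes no alternative gave a call (smallest adjusted p = 0.583), and 71 of 76 differences kept their sign. Several alternatives, dropping the replicate block among them, repeat the main difference by construction and cannot turn a sign. The 5 that turned came from leaving out a pair: Aldh1a3 at 0.034 without replicate 1, Crabp1 at -0.019 and Cyp26b1 at -0.0085 without replicate 2, and Cyp26b1 at -0.0082 and Rarb at 0.037 without replicate 3. Leaving out a pair gave ranges of -0.11 to 0.034 for Aldh1a3, -0.019 to 0.15 for Crabp1, -0.0085 to 0.12 for Cyp26b1 and -0.19 to 0.037 for Rarb; the cause was not tested. Quantile normalization and median centring turned no sign. Of the other pathway genes 0 passed under any alternative. The 11 genes with the repeat were all lower under both scalings and 9 were when any pair was left out, an alternative chosen after seeing the data. Signal over background is not given, so how far dim genes such as Crabp1 and Aldh1a3 could show a fall is unknown.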

Other observations

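With a spacer of 2 bases in place of 5, chosen after seeing the data, 88 windows of 84 genes held the repeat, and 14 of these genes were measured. Of the 14, 9 were lower and 0 passed, with a median difference of -0.013.

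Values on the arrays of pair 1 were shared by many probe sets. The best expressed Aldh1a3 probe set had a value on wild type replicate 1 that 237 other probe sets also had, Cyp26a1 one that 181 others had there, and Crabp1 one on mutant replicate 1 that 261 others had. Among the values of the 11 probe sets in pairs 2 and 3, only that of Aldh1a2 on mutant replicate 3 was shared, with 8 others.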
